A study of Mus musculus with 2 samples.

Results

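The amino acid and peptide transporters described here were all symbols in the gene annotation of the libraries from the families *Slc1*, *Slc3*, *Slc6*, *Slc7*, *Slc15*, *Slc36*, *Slc38* and *Slc43*. They numbered 72 of 50768 annotated features, with 22 symbols of *Slc6*, 16 of *Slc7*, 11 of *Slc38*, 7 of *Slc1*, 6 of *Slc36*, 5 of *Slc15*, 3 of *Slc43* and 2 of *Slc3*. The families were selected on measured values of these libraries, namely their levels by cell class, the difference between strains and the near absence of *Slc15a2* from NOD macrophages. The levels and strain values below are therefore a description and were not tested. Single-cell RNA sequencing was performed on stroma-enriched salivary gland cells of NOD/ShiLtJ mice, an inbred strain that develops lymphocytic infiltration of the glands, and of CD1 mice, an outbred stock used as control. The females were 20 weeks old and untreated, and submandibular and sublingual glands were pooled within a strain and depleted of cells bearing EpCAM or Ter119 and of dead cells. The labels give 3 mice per pool and the methods of the study another number. Each strain had 1 library, both labelled batch 1, so strain, pool and library cannot be told apart, barcodes are not replicates, and all intervals cover counting error only.

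Cells take up amino acids through carriers with overlapping substrates. The *Slc3* glycoproteins are heavy chains that bring most *Slc7* light chains to the membrane, where they exchange large neutral, cationic or sulfur-containing amino acids. *Slc1* carriers move glutamate and aspartate or small neutral amino acids, *Slc38* carriers move glutamine and alanine with sodium, and *Slc36* and *Slc38a9* act at the lysosome. *Slc15* carriers use protons to move di- and tripeptides, at the plasma membrane for *Slc15a1* and *Slc15a2* and at endolysosomes for *Slc15a3* and *Slc15a4*. Not every symbol is an amino acid or peptide carrier, since *Slc6* also holds carriers of taurine (*Slc6a6*), creatine (*Slc6a8*) and monoamines (*Slc6a2*, *Slc6a3*, *Slc6a4*), *Slc43a3* moves purine nucleobases, and 4 symbols name opposite-strand genes (*Slc7a6os*, *Slc36a3os*, *Slc36a1os*, *Slc6a19os*).

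The NOD library held 52790319 unique molecular identifiers (UMIs) and the CD1 library 56483149. Of the barcodes, 6500.0 (NOD) and 7014 (CD1) had at least 500 UMIs and 300 genes, with medians of 5719.5 and 6495 UMIs, and 18 barcode sequences occurred in both libraries. Kept barcodes were placed in classes by their UMIs of 16 marker lists. The classes are named macrophage-like and so on from the leading list. In NOD 195 barcodes were mixed between lists and 1202 were unplaced, and in CD1 135 and 839. There were 705 macrophage-like barcodes in NOD and 2633 in CD1, 1057 and 2666 endothelial-like, 1605 and 118 T-like, 607 and 363 NK-like, and 903 and 9 B-like. All 8 markers of its own list were present in each of these classes in both libraries. Cluster 4 held the largest part of T-like and cluster 6 of B-like barcodes in both libraries. In macrophage-, endothelial- and NK-like barcodes a different cluster held the largest part in each library. For macrophage-like barcodes this was cluster 0 (led by *Hpgd* and *Cx3cr1*) in CD1, with 62.0% of CD1 and 7.9% of NOD barcodes, and cluster 2 (led by *Aif1* and *Wfdc17*, with a median of 1591 UMIs) in NOD, with 44.3% of NOD and 28.5% of CD1. Cluster 13 (led by *Ccl12* and *Cxcl9*) held 32.9% of NOD and 2.5% of CD1. Among endothelial-like barcodes, cluster 1 (led by *Rbp7* and *Gpihbp1*) held 57.8% in CD1 and 13.7% in NOD, and cluster 3 (led by *Kirrel3*) held 18.2% and 57.9%.

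The kept barcodes carried 52056 UMIs of the transporters in NOD and 73990 in CD1. No UMI was found for 7 symbols (*Slc6a14*, *Slc6a18*, *Slc6a19*, *Slc7a9*, *Slc7a12*, *Slc7a13* and *Slc38a5*), 23 had 1 to 19 UMIs over both libraries, 22 had at least 1000 and the remaining 20 lay between. Levels are given as CPM, the UMIs of a gene for every 1000000 UMIs of a class in a library. A UMI counts 1 captured molecule and was not scaled by gene length, so orders of genes within a class below are orders of captured molecules. The summed transporter level was 1902 CPM in NOD and 2020 CPM in CD1 endothelial-like barcodes, 1399 and 1236 CPM in macrophage-like, 948 and 995 CPM in T-like, and 976 and 932 CPM in NK-like barcodes. Duct-like barcodes had a low sum in both libraries, at 326 and 464 CPM.

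**Figure D1:**
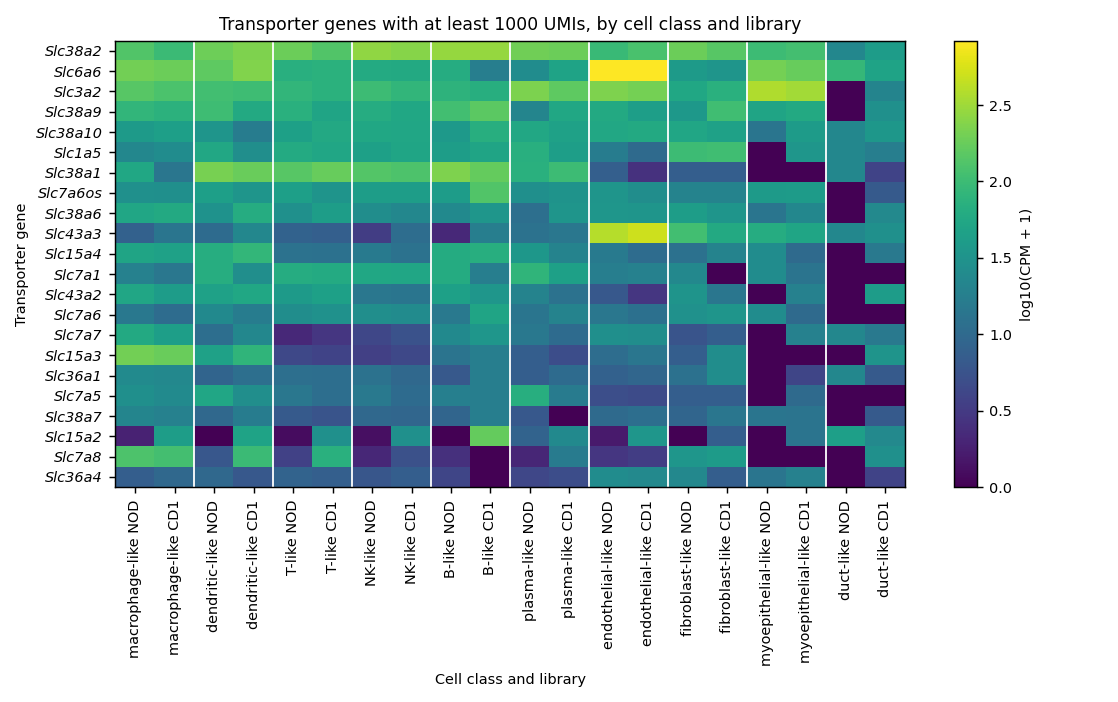
Level of the 22 transporter genes with at least 1000 UMIs (rows) in 10 cell classes of the NOD and CD1 libraries (columns), as log10(CPM + 1) in colour. Paired columns resemble each other for most genes, *Slc6a6* and *Slc43a3* are brightest in endothelial-like columns, *Slc15a3* and *Slc7a8* in macrophage-like columns, and the *Slc15a2* row is dark in most NOD columns.

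*Slc15a2*, the high-affinity plasma membrane carrier of di- and tripeptides, had 4 UMIs in macrophage-like barcodes of the NOD library and 803 in those of the CD1 library. These corresponded to 0.922 CPM (95% Poisson interval 0.251 to 2.36) and 41.3 CPM (38.5 to 44.3), a log2 ratio of NOD over CD1 of -5.49 (-7.36 to -4.12). A UMI of the gene was present in 3 of 705 NOD barcodes and in 417 of 2633 CD1 barcodes, which is 15.8% (exact binomial interval 14.5 to 17.3). After each barcode was thinned to 500 UMIs, the CD1 share was 1.44% and no NOD barcode had a UMI, and the CD1 share was 1.54% in endothelial-like, 0.847% in T-like and 1.93% in NK-like barcodes. The other large classes had few NOD UMIs of the gene as well. Endothelial-like barcodes had 4 UMIs in NOD (0.643 CPM) and 638 in CD1 (33.1 CPM), a log2 ratio of -5.69 (-7.57 to -4.32). T-like barcodes had 3 and 30 UMIs (log2 ratio -6.85) and NK-like barcodes 2 and 119 (log2 ratio -6.45), and B-like and dendritic-like barcodes had none in NOD and 10 and 9 UMIs in CD1.

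Plasma-like barcodes, which have markers of antibody-secreting cells, held the most *Slc15a2* UMIs of any NOD class. There were 7 UMIs in 7 of 47 NOD barcodes (7.44 CPM, 2.99 to 15.3) and 12 UMIs in 5 of 14 CD1 barcodes (23.1 CPM, 11.9 to 40.4), a log2 ratio of -1.64 (-3.22 to -0.17) and the intervals of the levels overlapped. Duct-like barcodes had 2 UMIs in 1 of 29 NOD barcodes and 8 UMIs in 8 of 147 CD1 barcodes. Over all placed barcodes the level was 0.592 CPM in NOD and 35.8 CPM in CD1. Empty droplets, barcodes of 10 to 100 UMIs that sample RNA free in the suspension, had 3 UMIs of the gene in NOD (0.612 CPM) and 95 in CD1 (28.2 CPM). From the markers of other classes, free RNA made up at most 0.943% of the UMIs of CD1 macrophage-like barcodes and 1.69% in NOD, and its subtraction left a log2 ratio of -5.49.

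By cluster, the *Slc15a2* level in CD1 was 43.7 CPM in cluster 0, 48.1 CPM in cluster 13, 30.4 CPM in the endothelial-like cluster 1, 50.2 CPM in cluster 3 and 33.0 CPM in the NK-like cluster 12. The NOD barcodes of the same clusters held 0, 2, 1, 2 and 0 UMIs of the gene. In the macrophage-like cluster 17 the level was 72.5 CPM in CD1 and 10.6 CPM in NOD, from 2 UMIs in 1 barcode. Cluster 2, macrophage-like barcodes of few UMIs, had 5 UMIs in 922 CD1 barcodes (2.95 CPM) and none in 336 NOD barcodes. Macrophage-like barcodes were also split by UMIs of *Ccr2*, *Ly6c2* or *Plac8*, genes of monocyte-derived cells. Those without a UMI of these genes had 4 *Slc15a2* UMIs in 580 NOD and 760 in 2482 CD1 barcodes, and those with one had 0 in 125 and 43 in 151.

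**Figure D2:**
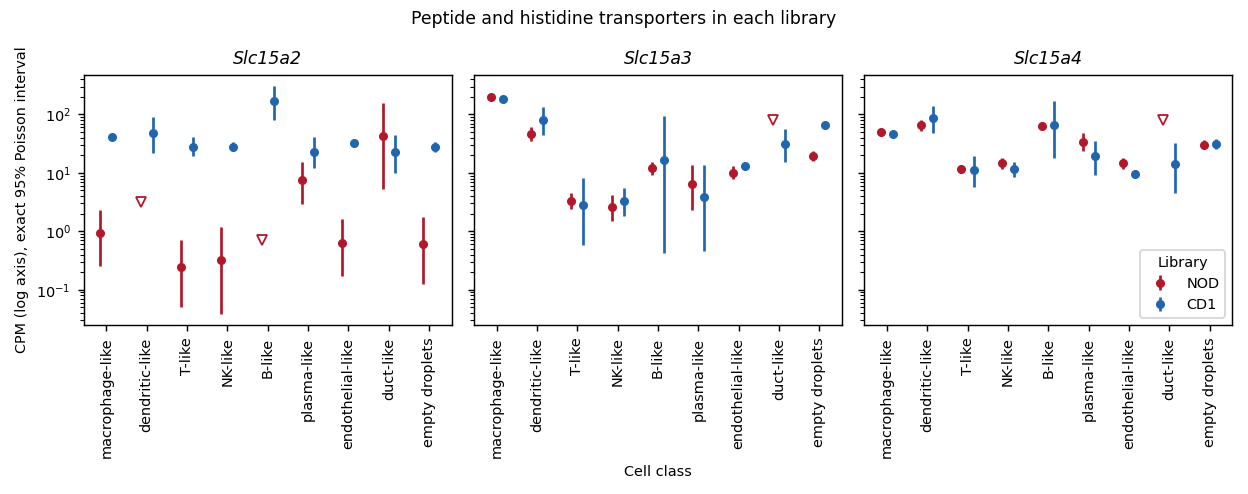
Level of *Slc15a2*, *Slc15a3* and *Slc15a4* in 8 cell classes and in empty droplets (x axis) of the NOD (red) and CD1 (blue) libraries, in CPM on a log axis with exact 95% Poisson intervals, open triangles marking the upper bound where no UMI was found. The NOD points or bounds of *Slc15a2* lie below the CD1 points except in duct-like barcodes, with overlapping intervals in plasma-like and duct-like barcodes, and the libraries nearly coincide for *Slc15a3* and *Slc15a4* in macrophage-like barcodes.

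The genes that flank *Slc15a2* in the RefSeq order were measured in both libraries. In macrophage-like barcodes the log2 ratio was 0.43 (0.37 to 0.49) for *Cd86*, a T cell costimulatory ligand, -0.13 (-0.42 to 0.15) for *Ildr1*, 0.15 (-0.42 to 0.69) for *Eaf2*, -0.15 (-0.56 to 0.24) for *Iqcb1* and 0.15 for *Golgb1*. No neighbour with at least 20 UMIs in either class had a ratio beyond 2-fold.

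**Figure D3:**
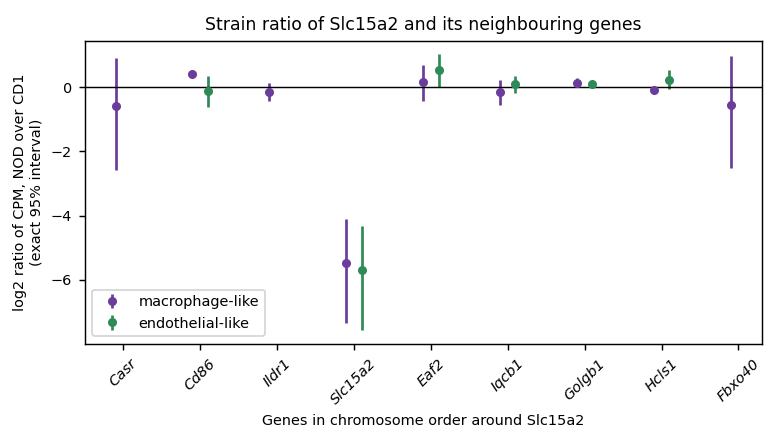
Log2 ratio of CPM, NOD over CD1, with exact 95% intervals for *Slc15a2* and flanking genes in chromosome order, in macrophage-like (purple) and endothelial-like (green) barcodes, for genes with at least 20 UMIs. *Slc15a2* lies below -5 in both classes and its neighbours between -1 and 1.

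The 250 bases upstream of the annotated *Slc15a2* start are shown because the gene was low over nearly all NOD classes. The sequence is that of the RefSeq reference on GRCm38.p6, chr16:36784963-36785212, minus strand, written from 5′ to 3′. It is the reference strain's sequence and neither the NOD nor the CD1 allele, and the reads of these libraries were counted on another build.
Slc15a2: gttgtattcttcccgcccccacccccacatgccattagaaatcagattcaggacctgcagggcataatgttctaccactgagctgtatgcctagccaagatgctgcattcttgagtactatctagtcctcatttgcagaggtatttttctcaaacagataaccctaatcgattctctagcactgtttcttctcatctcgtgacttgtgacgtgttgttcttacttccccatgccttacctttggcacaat
It has 45.2% G or C and 4 CpG dinucleotides, where the medians over 27025 genes with a promoter in the table were 52% and 6.

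The endolysosomal members of the family had similar macrophage-like levels in both libraries. *Slc15a3*, which exports histidine and bacterial peptides from endolysosomes, had 854 UMIs in NOD macrophage-like barcodes (197 CPM) and 3510 in CD1 (181 CPM), a log2 ratio of 0.12 (0.01 to 0.23). Macrophage-like barcodes held 88.4% of its placed UMIs, and a UMI was found in 44.8% of these barcodes in NOD and 52.9% in CD1, against 1.93% and 0.847% of T-like barcodes, at median depths of 3716 UMIs (NOD macrophage-like) and 6869 UMIs (NOD T-like). *Slc15a4*, which recruits the adaptor of endosomal toll-like receptor signalling, was broader, at 49.5 CPM and 46.1 CPM in macrophage-like, 62.4 CPM in NOD B-like and 65.4 CPM in NOD dendritic-like barcodes. Its endothelial-like level was 14.6 CPM in NOD and 9.65 CPM in CD1, a log2 ratio of 0.60 (0.22 to 0.97). *Slc15a1*, the intestinal peptide carrier, had 15 placed UMIs in NOD, 9 of them in T-like barcodes, and 6 in CD1. All 6 lay in NK-like barcodes, where NOD had none and the interval of the log2 ratio ended at -0.79. *Slc15a5* had 1 and 3 UMIs, and a difference was not detectable at this depth.

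Of the heavy chains, *Slc3a2* (CD98) was broad and *Slc3a1* was sparse. *Slc3a2* had 1399 UMIs in NOD endothelial-like barcodes (225 CPM) and 3944 in CD1 (205 CPM). It had 146 CPM and 123 CPM in macrophage-like barcodes, 221 CPM and 156 CPM in plasma-like barcodes, and 377 CPM and 331 CPM in the few myoepithelial-like barcodes (3 and 26). It was lower in lymphocytes, with 82.8 CPM and 72.6 CPM in T-like and 99.0 CPM and 82.9 CPM in NK-like barcodes. *Slc3a1*, the heavy chain of the renal cystine and dibasic carrier, had at most 28 UMIs in any class, and its light chains *Slc7a9* and *Slc7a13* had none.

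The carriers of *Slc7* were divided among the classes. *Slc7a8* (LAT2), an exchanger of neutral amino acids, had 90.8% of its placed UMIs in macrophage-like barcodes, with 127 CPM in NOD and 112 CPM in CD1. *Slc7a7* (y+LAT1), which exports arginine, reached 58.1 CPM and 42.6 CPM in macrophage-like barcodes, against 27.2 CPM and 26.2 CPM in endothelial-like and 1.14 CPM and 1.89 CPM in T-like barcodes. *Slc7a5* (LAT1), the carrier of large neutral amino acids, was at 27.7 CPM and 23.8 CPM in macrophage-like barcodes and at 67.0 CPM in NOD against 15.4 CPM in CD1 plasma-like barcodes (63 and 8 UMIs). The cationic amino acid carrier *Slc7a1* was at 62.8 CPM and 59.4 CPM in T-like barcodes and at 18.4 CPM and 13.4 CPM in macrophage-like barcodes. *Slc7a2*, another arginine carrier, had 41 and 161 UMIs in macrophage-like barcodes (9.45 CPM and 8.28 CPM), which held 80.8% of its placed UMIs, and 14 UMIs in 15 mural-like barcodes of NOD.

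*Slc7a8* also marked a cluster that no marker list named. In cluster 20, led by *Stab2*, *Thsd4* and *Dach2* and with 88 NOD and 99 CD1 barcodes, its level was 330 CPM in NOD and 314 CPM in CD1, the highest of all clusters of at least 20 barcodes in each library. The T-like class had 33 *Slc7a8* UMIs in NOD (2.69 CPM) and 74 in CD1 (69.8 CPM), a log2 ratio of -4.70 (-5.33 to -4.08). Of those CD1 UMIs, 72 lay in 24 T-like barcodes of cluster 20, which was 20.3% of T-like barcodes in CD1 and 0.312% (5 barcodes) in NOD. Without barcodes of unnamed clusters 14 and 2 UMIs were left and the log2 ratio was -1.10, and with classes taken from clusters it was 0.34. NK-like barcodes had 7 and 18 UMIs, a log2 ratio of -1.92 (-3.42 to -0.59), with 8 of the 18 in 1 barcode, and the ratio was -0.86 with a leading list 10 times the next. The 57 and 13 dendritic-like barcodes had 6 and 18 UMIs, a log2 ratio of -4.22 (-5.84 to -2.83). Their median UMIs were 25 of their own list and 14 of other lists in NOD, and 12 and 18 in CD1. That ratio was not recomputed in other settings, and the part of other cells in it was not tested.

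*Slc7a11* (xCT), the cystine and glutamate exchanger, had 42 UMIs in NOD macrophage-like barcodes and 17 in CD1, a log2 ratio of 3.47 (2.62 to 4.37). A single NOD barcode held 34 of the 42 UMIs, and without the richest barcode of each library the log2 ratio was 1.37. Barcodes with at least 2 UMIs of 10 cell cycle genes held 36 of the 42, and those with at least 5 held 2. The log2 ratio of NOD over CD1 was below 2-fold without dividing barcodes (0.64, 6 and 17 UMIs), with classes taken from clusters (0.71) and without barcodes of unnamed clusters (0.88). The gene is a target of Atf4, which acts through an amino acid response element, and its promoter is shown with matches to TGATGNAA on either strand in capitals (RefSeq, GRCm38.p6, chr3:50443614-50443863, minus strand, the 250 bases before the start).
Slc7a11: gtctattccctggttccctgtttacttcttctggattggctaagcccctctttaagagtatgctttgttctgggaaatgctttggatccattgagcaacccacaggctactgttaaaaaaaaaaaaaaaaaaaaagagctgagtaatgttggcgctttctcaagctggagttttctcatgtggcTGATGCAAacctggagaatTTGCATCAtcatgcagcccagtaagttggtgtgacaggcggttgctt
Both matches, which begin at -66 and -47 from the start, are descriptions of the letters. The motif occurred in the same window of 1056 of 27025 genes (3.91%) and of 3 of the 53 transporters with a promoter in the table (5.66%), namely *Slc7a11*, *Slc6a21* and *Slc7a7*. The *Slc15a2* window had none.

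The sodium-coupled neutral carriers of *Slc38* led the transporters of lymphocytes. *Slc38a2* (SNAT2), which is induced by amino acid shortage, reached 283 CPM and 285 CPM in B-like, 274 CPM and 243 CPM in NK-like and 184 CPM and 135 CPM in T-like barcodes. *Slc38a1* (SNAT1), a glutamine carrier, was the next in each of these classes over both libraries pooled, at 226 CPM and 167 CPM, 137 CPM and 127 CPM, and 144 CPM and 174 CPM, the last, in CD1 T-like barcodes, above *Slc38a2*. *Slc38a9*, the lysosomal arginine sensor of mTORC1, followed in B-like barcodes at 108 CPM over both libraries. It was lower in NOD in plasma-like barcodes (19 and 28 UMIs, log2 ratio -1.42, -2.34 to -0.53) and in fibroblast-like barcodes (22 and 16 UMIs, -1.57, -2.56 to -0.54). *Slc38a6* had 10 and 17 UMIs in plasma-like barcodes, a log2 ratio of -1.62 (-2.91 to -0.41), and 35 and 12 in dendritic-like barcodes (-1.09, -2.07 to -0.01). There were 47 and 14 plasma-like, 63 and 21 fibroblast-like and 57 and 13 dendritic-like barcodes. Median depths of the fibroblast-like ones were 9682 UMIs in NOD and 1695 in CD1, and 23 and 10 of them exceeded 10% mitochondrial UMIs. For these 3 classes no other setting and no share over all genes was computed. *Slc38a11* was sparse apart from contractile cells, with 11 UMIs in 11 mural-like and 44 in 26 myoepithelial-like CD1 barcodes.

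*Slc38a1* was higher in NOD in macrophage-like and endothelial-like barcodes. Macrophage-like barcodes had 233 UMIs in NOD (53.7 CPM, in 137 of 705 barcodes) and 256 in CD1 (13.2 CPM, in 192 of 2633), a log2 ratio of 2.03 (1.77 to 2.29). Endothelial-like barcodes had 42 and 31 UMIs (6.75 CPM and 1.61 CPM), a log2 ratio of 2.07 (1.36 to 2.79). Plasma-like barcodes were at 70.1 CPM in NOD and 100.2 CPM in CD1, and fibroblast-like barcodes, with 4 and 1 UMIs, at 6.36 CPM and 6.48 CPM. Markers of T cells moved with the difference in macrophage-like and endothelial-like barcodes, all 8 being present, at 154 CPM in NOD and 7.77 CPM in CD1 macrophage-like barcodes and at 136 CPM and 2.96 CPM in endothelial-like barcodes, where NOD T-like barcodes had 3748 CPM. B cell markers were at 70.3 CPM (8 of 8 present) and 9.52 CPM (4 of 8), and NK markers at 126 CPM and 39.6 CPM (8 of 8 in both). Among macrophage-like barcodes without any T cell marker UMI, *Slc38a1* was at 49.5 CPM in 583 NOD barcodes and 12.6 CPM in 2555 CD1 barcodes. In cluster 13 alone the class had 114 and 15 UMIs, a log2 ratio of 1.14. All barcodes of cluster 13, of whatever class, were at 47.0 CPM in NOD and 36.1 CPM in CD1 (118 and 33 UMIs). Barcodes with a UMI of *Ccr2*, *Ly6c2* or *Plac8* had 95.3 CPM and 30.1 CPM, and those without 36.9 CPM and 11.8 CPM.

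The high-affinity glutamate carriers *Slc1a1* and *Slc1a3* were found in different classes. *Slc1a1* (EAAC1), which also takes up cysteine, had 94.9% of its placed UMIs in endothelial-like barcodes. It had 35 UMIs there in 24 NOD barcodes (5.63 CPM) and 433 in 296 CD1 barcodes (22.5 CPM), a log2 ratio of -2.00 (-2.54 to -1.50). The level was lower in NOD within both large endothelial-like clusters, at 11.9 CPM against 26.3 CPM in cluster 1 and 6.18 CPM against 22.3 CPM in cluster 3. *Slc1a3* (GLAST) had 38 UMIs in 18 NOD macrophage-like barcodes (8.76 CPM), 20 of them in 3 barcodes, and 2 UMIs in CD1 (0.103 CPM), a log2 ratio of 6.41 (4.46 to 9.51). It had 30 UMIs in 63 fibroblast-like NOD barcodes and none in 21 of CD1. Fibroblast markers in macrophage-like barcodes were at 10.4 CPM in NOD (6 of 8 present) and 2.93 CPM in CD1 (7 of 8), and macrophage-like barcodes without a fibroblast marker UMI had 30 and 2 *Slc1a3* UMIs. NOD macrophage-like barcodes with a T cell marker UMI had 16.5 CPM of *Slc1a3*, and those without had 6.15 CPM. Within cluster 2 the class had 3 and 1 UMIs of it (log2 ratio 3.01). Within cluster 13 it had 14 and 0, a log2 ratio of 0.44 against 3 UMIs in CD1. *Slc1a5* (ASCT2), a glutamine exchanger, was at 100.2 CPM and 104 CPM in fibroblast-like barcodes and 60.3 CPM and 52.8 CPM in T-like barcodes. Its relative *Slc1a4* was sparse, with 4 and 38 UMIs in endothelial-like barcodes (log2 ratio -1.62, -3.56 to -0.14).

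**Figure D4:**
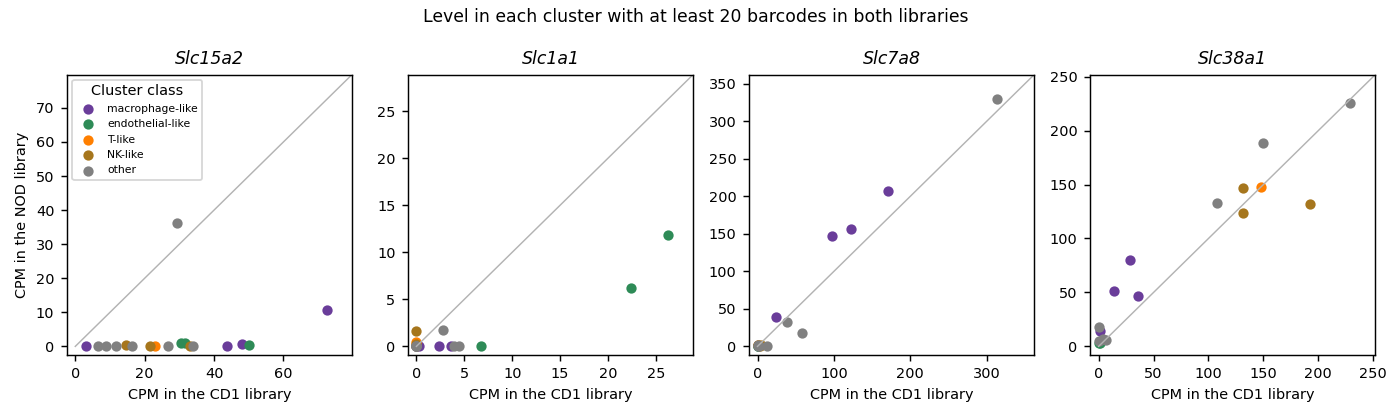
CPM in the CD1 library (x axis) and in the NOD library (y axis) of *Slc15a2*, *Slc1a1*, *Slc7a8* and *Slc38a1*, each point 1 of the 18 clusters with at least 20 barcodes in both libraries, coloured by cluster class, with a line of equal levels. *Slc15a2* points lie along the x axis apart from the duct-like cluster 19 (36.3 CPM in NOD) and the macrophage-like cluster 17 (10.6 CPM), each from 2 UMIs, *Slc1a1* endothelial-like points lie below the line, and macrophage-like points of *Slc7a8* and *Slc38a1* lie above it.

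Endothelial-like barcodes were led by transporters of other substrates. *Slc6a6*, the taurine carrier, had 5177 UMIs in NOD (832 CPM) and 15982 in CD1 (830 CPM), a log2 ratio of 0.00 (-0.04 to 0.05). In macrophage-like barcodes it was at 198 CPM and 181 CPM, level with *Slc15a3* within counting error. *Slc43a3*, the purine nucleobase carrier, had 95.4% of its placed UMIs in endothelial-like barcodes, at 393 CPM in NOD and 498 CPM in CD1. Its levels in cluster 9 (led by *Pcsk5* and *Col8a1*) were 283 CPM and 302 CPM, and in cluster 1 they were 392 CPM and 541 CPM. *Slc43a2* (LAT4), a carrier of branched-chain amino acids, had 33 and 36 UMIs in endothelial-like barcodes (5.30 CPM and 1.87 CPM), a log2 ratio of 1.51 (0.78 to 2.23), which was 0.93 with classes taken from clusters, short of 2-fold. The T cell markers of these barcodes, at 136 CPM and 2.96 CPM, moved with it, and their part was not tested. *Slc43a2* was at 52.8 CPM and 40.7 CPM in macrophage-like barcodes. *Slc6a8*, the creatine carrier, was the second of the transporters in duct-like barcodes with 16 UMIs over both libraries. *Slc6a13*, a carrier of GABA and taurine, had 14 UMIs in NOD and 8 in CD1 T-like barcodes, a log2 ratio of -2.72 (-4.08 to -1.26). Those UMIs lay in 10 NOD and 5 CD1 barcodes. With classes taken from clusters *Slc6a13* had 14 and 2 UMIs, a log2 ratio of -1.55. Without barcodes of unnamed clusters a library was left with no *Slc6a13* UMI, so no ratio could be given. The lower NOD level in T-like barcodes could not be shown in that setting.

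Few members of *Slc36* were abundant. *Slc36a4* was highest in endothelial-like barcodes at 25.6 CPM and 22.7 CPM, and *Slc36a1* in NOD macrophage-like barcodes at 24.0 CPM. *Slc36a3* had 20 UMIs in 19 NOD NK-like barcodes and 2 in CD1, a log2 ratio of 2.77 (0.73 to 5.91), and the overlapping *Slc36a3os* had 24 and 7 UMIs. No source states whether reads were counted by strand, so this pair and *Slc7a6* with *Slc7a6os* cannot be separated with certainty. The same holds for the similar copies *Slc6a20a* (14 UMIs) and *Slc6a20b* (135 UMIs). *Slc7a6os* had 209 UMIs in NOD B-like barcodes and 8 in the 9 of CD1, 5 of them in 1 barcode, a log2 ratio of -1.73 (-2.74 to -0.50), and without the richest barcode of each library it was -0.46, short of 2-fold.

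The numbers of transporters at least 2-fold apart between libraries are given beside those over all genes, without a reading, since the strain difference was used to choose the families. With at least 20 UMIs in a class required, 5 of 31 transporters in macrophage-like barcodes were past 2-fold (16.1%), where 15.0% of all 14676 genes were, and the median log2 ratio was 0.17 against 0.05. Higher in NOD were 3 (all genes: 8.19%), *Slc7a11*, *Slc1a3* and *Slc38a1*, and lower were 2 (all genes: 6.77%), *Slc15a2* and *Slc1a4*, the latter with an interval that included 0. In endothelial-like barcodes 5 of 26 were past 2-fold (all genes: 12.4%), with *Slc43a2* and *Slc38a1* higher in NOD (all genes: 8.52%) and *Slc15a2*, *Slc1a1* and *Slc1a4* lower (all genes: 3.87%). T-like barcodes had 4 of 26 (all genes: 18.4%), with *Slc36a3* higher (57 and 2 UMIs, interval including 0, all genes: 12.0%) and *Slc15a2*, *Slc7a8* and *Slc6a13* lower (all genes: 6.35%). NK-like barcodes had 5 of 26 (all genes: 11.0%), with *Slc36a3* and *Slc36a3os* higher (all genes: 5.96%) and *Slc15a2*, *Slc43a3* and *Slc7a8* lower (all genes: 5.07%). B-like barcodes had 8 of 20 (all genes: 52.1%), 3 higher (38.4%) and 5 lower (13.7%), and rest on 9 CD1 barcodes. *Slc43a3* in NK-like barcodes (15 and 42 UMIs, log2 ratio -2.04) was at 0.11 within cluster 12 (7 and 13 UMIs), -2.34 within cluster 10 (3 and 8 UMIs) and -0.73 with classes taken from clusters.

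**Figure D5:**
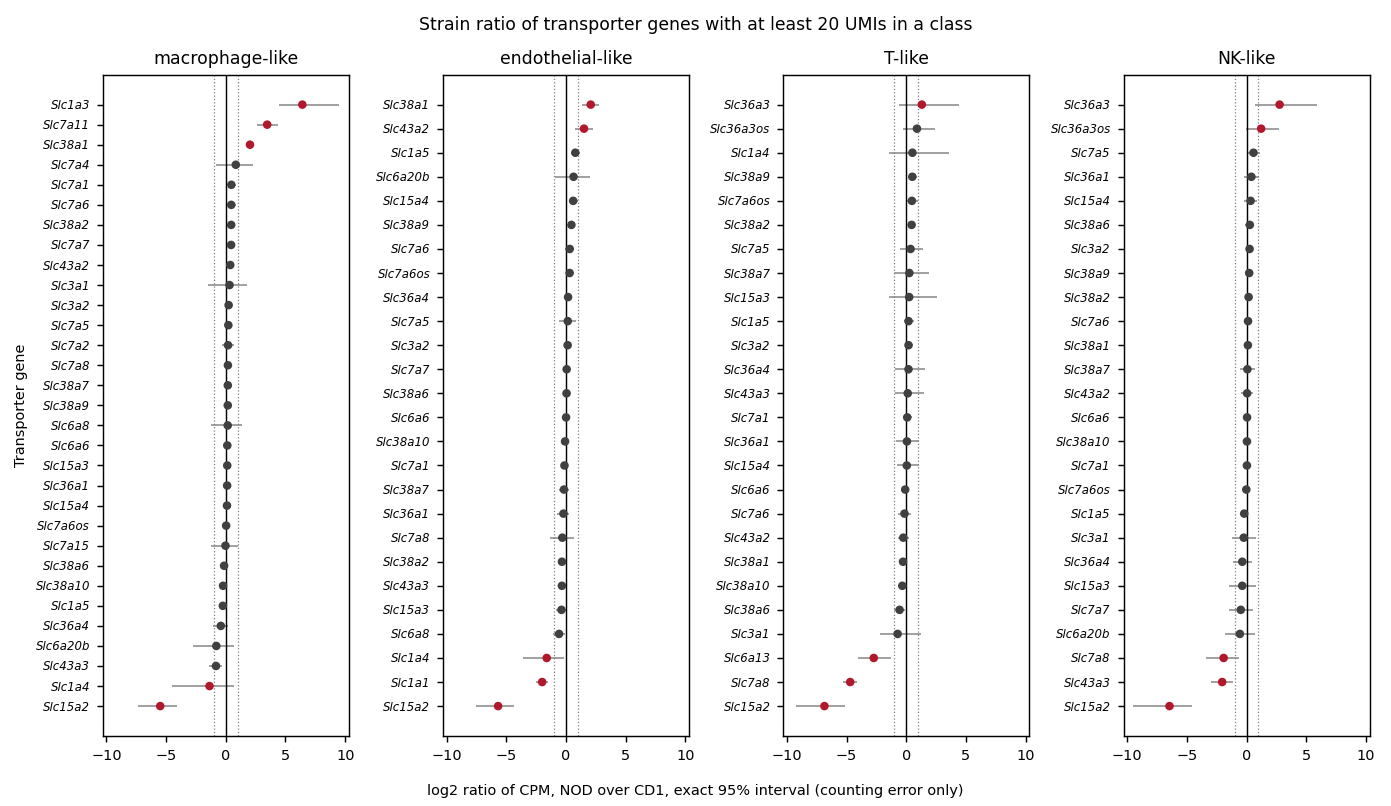
Log2 ratio of CPM, NOD over CD1, with exact 95% intervals (counting error only) for each transporter with at least 20 UMIs in macrophage-like, endothelial-like, T-like and NK-like barcodes, points past 2-fold (dotted lines) in red. Most points lie between the dotted lines, and *Slc15a2* is the lowest in all 4 classes.

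Dividing barcodes, those with at least 2 UMIs of 10 cell cycle genes, were compared with the others of their class and library. They were deeper, with medians of 11809.5 against 7427 UMIs in CD1 macrophage-like and 8268 against 3528.5 in NOD macrophage-like barcodes. The part of depth in the ratios was not tested. In CD1 macrophage-like barcodes (192 dividing, 2441 other), *Slc43a3* was at 40.0 CPM against 8.93 CPM, a log2 ratio of 2.16 (1.77 to 2.55), and *Slc7a1* at 32.2 CPM against 10.9 CPM, a log2 ratio of 1.57 (1.16 to 1.96). In NOD (45 and 660) the log2 ratios were 1.99 (0.74 to 3.14) and 1.06 (0.17 to 1.87). *Slc43a3* was also higher in dividing T-like barcodes of NOD (28 and 60 UMIs, log2 ratio 1.48, 0.77 to 2.15) and dividing NK-like barcodes of CD1 (16 and 26 UMIs, 2.08, 1.08 to 3.03). In CD1 endothelial-like barcodes, where it was most abundant, it was lower in the 14 dividing ones (37 and 9565 UMIs, -1.07, -1.58 to -0.61). Endothelial markers, where *Slc43a3* is high, were at 153 CPM in dividing and 183 CPM in other CD1 macrophage-like barcodes. Without barcodes that had an endothelial marker UMI the CD1 levels of *Slc43a3* were 33.6 CPM and 2.74 CPM. *Slc3a2* had 134 CPM in dividing and 122 CPM in other CD1 macrophage-like barcodes (log2 ratio 0.14, -0.04 to 0.31), and *Slc7a5* 33.5 CPM and 22.5 CPM (0.57, 0.20 to 0.93). In NOD macrophage-like barcodes *Slc7a5* had 7 and 113 UMIs (-0.95, -2.30 to 0.14).

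Genes that use or sense amino acids were counted over 8 lists. In macrophage-like barcodes, 3 of 13 measured genes of the Atf4 amino acid response were at least 2-fold higher in NOD (all genes: 8.19% higher and 6.77% lower), namely *Phgdh* of serine synthesis (11 and 13 UMIs, log2 ratio 1.92), *Ddit4* (1.16) and *Sesn2* (1.08), which both restrain mTORC1, and none was lower. The list's median log2 ratio was 0.41, against 0.05 over all genes. Of 23 genes of lysosomal amino acid sensing 1 was higher, *Rragb* (1.16), a GTPase that recruits mTORC1. Arginine use had 1 of 8, *Ass1* of arginine synthesis (39.6 CPM and 12.0 CPM, log2 ratio 1.73), and tryptophan use 1 of 4, *Kmo* (23 and 10 UMIs, log2 ratio 3.37). Endosomal sensing had 1 of 11, *Nod1*, a receptor of bacterial cell wall peptides (22.4 CPM and 8.64 CPM, log2 ratio 1.37). None of 8 genes of glutamine use, 13 of glutathione use and 10 of the cell cycle was past 2-fold. In endothelial-like barcodes (all genes: 8.52% higher and 3.87% lower) the Atf4 list had 2 of 14 higher (*Sesn2*, *Atf3*) and 1 lower, amino acid sensing 2 of 22 higher (*Rragb*, *Sesn3*), tryptophan use 1 of 2 and glutamine use 1 of 8 higher, arginine use 2 of 8 lower (*Odc1*, *Gatm*), glutathione use 1 of 12 lower (*Nqo1*), endosomal sensing none of 9, and the cell cycle 2 of 6 higher (*Mki67*, *Top2a*).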

How the data were processed

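The libraries were made by the 10x Genomics droplet method, and the deposited files hold raw UMI counts per gene and barcode with no cell filter. The submitters' processing notes name GRCm39, Cell Ranger 8.0.0, Seurat 5.0.1 and R 4.3.1. The members and gene lists were chosen with earlier results of these data known.

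From these counts, barcodes with at least 500 UMIs and 300 genes were kept with no mitochondrial limit. A barcode took the class of the marker list (16 lists) leading its UMIs after subtraction of the level in empty droplets (10 to 100 UMIs), given at least 3 UMIs in excess, 2 markers and 2 times the next list. Otherwise it was mixed (195 in NOD, 135 in CD1) or unplaced (1202 and 839). No doublet caller was run. Mixed barcodes were left out, and classes can still hold doublets. Clusters came from both libraries together without integration (2000 variable genes without the transporters and list genes, 30 components, 20 neighbours, Leiden at resolution 1).

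UMIs were summed per class and scaled to CPM. Intervals, all at 95%, were exact Poisson for CPM, conditional exact binomial for log2 ratios and Clopper-Pearson for shares. A fold against 0 UMIs was computed against 3 UMIs in that library. No test was made, since a strain had 1 library. Genes named are all *Slc15* and *Slc3* members, members at least 2-fold apart with an interval off 0 in macrophage-, endothelial-, T-, NK- or B-like barcodes, list genes so in macrophage-like barcodes, the 3 highest per class, and those with 80% of UMIs in 1 class. Others were named after their values were seen. Python 3.11.15, scipy 1.17.1 and igraph 0.11.9 were used, and the interval code was tested on simulated data.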

Additional observations from a re-analysis of the deposited data

Results flagged for a closer look

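For 3 transporters the ratio of NOD over CD1 had opposite signs in different classes, with intervals that left out 0 on both sides and at least 1 ratio past 2-fold. The difference between classes was not tested. *Slc38a1* had log2 ratios of 2.03 in macrophage-like and 2.07 in endothelial-like barcodes and -0.27 in T-like barcodes. *Slc7a8* had 0.18 in macrophage-like, -4.70 in T-like and -1.92 in NK-like barcodes. Its T-like ratio was -1.10 without barcodes of unnamed clusters (14 and 2 UMIs) and 0.34 with classes from clusters. Its NK-like ratio was -0.86 with a leading list 10 times the next. *Slc7a6os* had 0.30 in endothelial-like and -1.73 in B-like barcodes, the last from 9 CD1 barcodes and -0.46 without the richest barcode of each library.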

How the results depend on the processing

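Ratios were recomputed with 1000 UMIs and 500 genes required, with at most 10% mitochondrial UMIs, with classes from clusters, with a leading list 10 times the next, with median-of-ratios scaling (which moved the log2 ratio of all genes by 0.18 in B-like and by -0.08 to -0.03 in the other classes), after subtraction of free RNA, and with barcodes weighted equally. The *Slc15a2* ratios kept their direction in all of these, and in macrophage-like barcodes ranged from -6.41 to -5.25. Where NOD had 0 UMIs the ratio was computed against 3 UMIs in NOD, without the counting error of CD1. It was -3.61 (12.2-fold lower) in macrophage-like barcodes with *Ccr2*, *Ly6c2* or *Plac8*, and -3.70 and -4.34 in NK-like barcodes of clusters 12 and 10. For NK-like barcodes with a leading list 10 times the next (0 and 86 UMIs) it was -5.48. With no minimum beyond 1 UMI, 28 of 54 transporters were past 2-fold in macrophage-like, 19 of 48 in endothelial-like, 23 of 48 in T-like, 27 of 48 in NK-like and 27 of 39 in B-like barcodes. These numbers include genes with 1 UMI against 0. With at least 50 UMIs required, 3 of 25 were in macrophage-like, 4 of 24 in endothelial-like, 2 of 21 in T-like, 2 of 19 in NK-like and 4 of 16 in B-like barcodes. The shares over all genes at these 2 minima were not computed, so the numbers are given without a reading. Thinning to 2000 UMIs gave 6.13% of CD1 macrophage-like and 5.70% of endothelial-like barcodes with a *Slc15a2* UMI. With at least 5 cell cycle UMIs the dividing ratios were 2.66 (*Slc43a3*) and 2.28 (*Slc7a1*). The ratio of *Slc7a8* in T-like barcodes reversed to 0.34 with classes from clusters. That of *Slc43a3* in NK-like barcodes reversed to 0.11 within cluster 12, which held 21.7% of NOD and 60.1% of CD1 NK-like barcodes. Within cluster 10, which held 45.6% and 33.6%, it was -2.34. The cause of the 2 reversals was not tested. Ratios past 2-fold that fell short of it were *Slc7a11* in macrophage-like (0.71), *Slc43a2* in endothelial-like (0.93) and *Slc43a3* in NK-like barcodes (-0.73) with classes from clusters, *Slc7a8* in NK-like barcodes with a leading list 10 times the next (-0.86), *Slc7a11* without dividing barcodes (0.64) or unnamed clusters (0.88), *Slc1a4* in endothelial-like barcodes within cluster 3 (-0.99) and *Slc7a6os* in B-like barcodes without the richest barcode (-0.46). For *Slc6a13* in T-like barcodes no ratio could be given without barcodes of unnamed clusters, because a library had no UMI left. *Slc38a1* in macrophage-like barcodes ranged from 1.14 to 3.43, the last within cluster 2 from 8 and 2 UMIs. *Slc1a3* in macrophage-like barcodes was at 3.01 within cluster 2 (3 and 1 UMIs). Within cluster 13 (14 and 0 UMIs) it was at 0.44 against 3 UMIs in CD1, short of 2-fold. Alternatives within a cluster, without dividing barcodes, without the richest barcode and without unnamed clusters were chosen after seeing the data. Only macrophage-, endothelial-, T-, NK- and B-like barcodes were recomputed, so ratios in plasma-, fibroblast- and dendritic-like barcodes were given in the main setting alone. Leaving out a replicate could not be done with 1 library per strain. No paired analysis was possible because the libraries share only the replicate number 1.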
